A study of Mus musculus with 15 samples.

Results

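The 10 genes described here are imprinted regulators of growth in the mouse. They are Igf2, Dlk1, Grb10, Cdkn1c, Plagl1, Peg3, Peg10, Sgce, Mest and Zrsr1. They were chosen by name from the 18762 genes of the deposited expression table, and all 10 were found in it. At an imprinted gene a DNA methylation mark set in one parent's germ line leaves mainly a single parental copy active. In the embryo and placenta, many imprinted genes that are active on the paternal copy favour growth, whereas many active on the maternal copy restrain it. The germ-line marks are kept in embryonic stem (ES) cells by factors such as ZFP57 and TRIM28, and ES cell lines are known to lose or gain such marks in culture.

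Messenger RNA was sequenced from mouse ES cells of strain C57BL/6N that lacked Mettl5 (Mettl5-/-, here KO) or were wild type (WT), with the aim of comparing both genotypes before and after differentiation. The METTL5 enzyme methylates an adenosine in the RNA of the small ribosomal subunit. Each genotype was sampled in 3 cultures, which were undifferentiated and untreated ES cells at day 0, embryoid bodies (EBs) at day 6, and N2B27 medium at day 6. EBs are cell aggregates, grown here without LIF, the cytokine that holds ES cells undifferentiated, on poly-HEMA-coated dishes to which cells do not attach. N2B27 is a serum-free medium for neural differentiation. The titles name 3 KO lines (KO_1, KO_2 and KO_3) and 2 WT lines (Ctr and WT), each sequenced once per culture, so there were 15 libraries in 6 groups. The sources used here do not state whether a line is a clone, how Ctr differs from WT, or which part of Mettl5 was deleted.

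Values are FPKM, that is fragment numbers divided by transcript length and library total, as the authors deposited them. The total per library was estimated from the steps between low values at 16400000 to 18300000 fragments. In a library, 10953 to 11807 genes reached 1 FPKM. Pou5f1, which defines ES cells, was at 951 to 998 FPKM in KO and 926 to 1054 FPKM in WT ES cells. The mesoderm marker T was at 12.6 to 53.3 FPKM in KO and 44.2 to 61.2 FPKM in WT EBs. Sox1, a neural marker, was at 71.5 to 134 FPKM in KO and 118 to 129 FPKM in WT N2B27 libraries. The fibroblast collagen Col3a1 did not exceed 0.01 FPKM in any ES library, but it is 1 of 16 fibroblast and feeder markers. Their summed level was 112 to 121 FPKM in KO and 145 to 166 FPKM in WT ES cells, without overlap. In each ES library 4 of them reached 1 FPKM, and of the 12 tested 0 were called between the genotypes in ES cells.

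Mettl5 itself was lower in KO than in WT libraries in all cultures, without overlap. In ES cells it was at 7.21 to 10.7 FPKM in KO and 19.03 to 20.9 FPKM in WT, in EBs at 5.22 to 9.07 FPKM in KO and 17.7 to 19.8 FPKM in WT, and in N2B27 at 3.29 to 6.41 FPKM in KO and 8.37 to 8.65 FPKM in WT. The lines also differed in ways that the genotype does not describe. Eif2s3y, a gene on the Y chromosome, was at 0.21, 1.25 and 0.56 FPKM in the line named WT in ES cells, EBs and N2B27, and at 11.5 to 52.8 FPKM in the other lines. Uty, also on the Y chromosome, was at 0.68 to 1.66 FPKM in lines Ctr and KO_2 and at no more than 0.09 FPKM in the other lines. Ddx3y, a further gene on the Y chromosome, was at 1.52, 2.00 and 2.09 FPKM in line Ctr and at no more than 0.40 FPKM in the other lines. Lines WT, Ctr and KO_2 thus each stand apart in genes unrelated to the targeted one. The EB differences of the members that were highest in KO_2, and those of Peg3, Igf2 and Mest, are given with and without the EB library of KO_2.

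The promoters of 3 members are shown here because these members carry the results that follow. Plagl1 and Zrsr1 were highest in a single KO line in all cultures, and Peg3 was the member that differed between the genotypes in EBs. Each sequence is the 250 bases before a transcription start of the RefSeq promoter table on GRCm38.p6, read 5′ to 3′ on the strand of the gene with CG pairs in capitals. The windows are chr10:13090582-13090831 (plus strand) for Plagl1, chr11:22971755-22972004 (plus strand) for Zrsr1, and chr7:6730420-6730669 (minus strand) for Peg3. The Peg3 window overlaps the end of the RefSeq interval of the gene given further on, which extends past the start used for the window.
Plagl1: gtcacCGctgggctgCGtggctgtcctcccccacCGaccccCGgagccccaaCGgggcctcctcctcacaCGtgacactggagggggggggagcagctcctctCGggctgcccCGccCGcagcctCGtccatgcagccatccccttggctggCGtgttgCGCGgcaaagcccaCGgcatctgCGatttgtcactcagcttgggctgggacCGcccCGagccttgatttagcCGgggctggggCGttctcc
Zrsr1: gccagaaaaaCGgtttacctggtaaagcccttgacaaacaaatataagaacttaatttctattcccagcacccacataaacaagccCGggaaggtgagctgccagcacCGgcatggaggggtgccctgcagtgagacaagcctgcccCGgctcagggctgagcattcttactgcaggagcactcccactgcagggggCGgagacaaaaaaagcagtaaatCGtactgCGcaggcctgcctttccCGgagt
Peg3: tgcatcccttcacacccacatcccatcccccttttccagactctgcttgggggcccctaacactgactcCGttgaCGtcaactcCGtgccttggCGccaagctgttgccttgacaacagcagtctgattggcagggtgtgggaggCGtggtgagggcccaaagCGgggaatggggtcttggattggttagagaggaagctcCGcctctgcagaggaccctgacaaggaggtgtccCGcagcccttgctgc
The Plagl1 window held 19 CG pairs, and the Zrsr1 and Peg3 windows held 8 each, against a median of 6 in the 32851 windows of the table. Of all windows, 19.7% held at least as many as Plagl1 and 43.0% at least as many as the other pair. The hexamer TGCCGC, searched on both strands because methylated copies of it are bound by ZFP57, occurred once in the Plagl1 window and not in the Zrsr1 or Peg3 window. It was present in 8.68% of all windows, and a match is a description of the letters only. Windows were found for 7 of the 10 members, and Peg10, Sgce and Cdkn1c were not matched.

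Line KO_2 had the highest level of all 5 lines in all 3 cultures for Zrsr1, Sgce, Plagl1 and Peg10. These were 4 of 10 members, whereas 0.789% of all 12929 genes tested (102 genes) were highest in KO_2 in all cultures. No member was highest in all cultures in KO_1 (0.449% of genes), KO_3 (0.99%), Ctr (1.86%) or WT (1.07%). All 4 are known as genes expressed from the paternal copy, as are Igf2, Peg3, Mest and Dlk1, which did not share this pattern. The members were chosen with the values of these lines known, so the count describes them and gives no independent support.

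**Figure D1:**
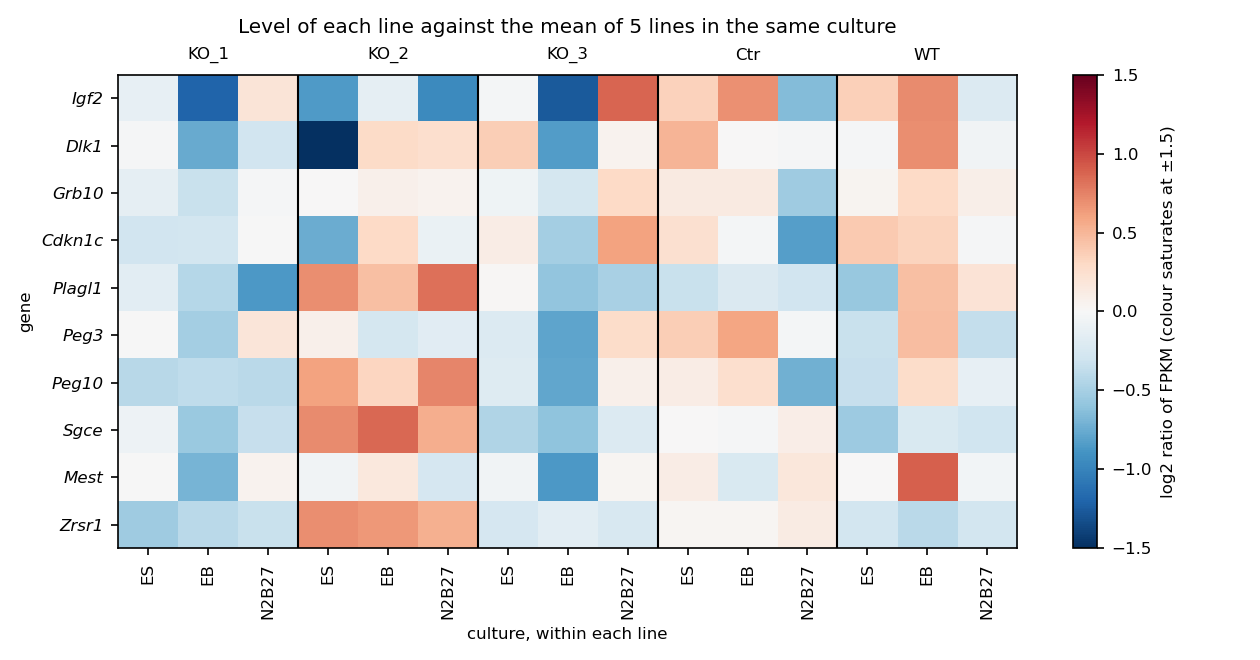
Level of the 10 members (rows) in each line and culture (columns) as a log2 ratio of FPKM to the mean of the 5 lines in the same culture; red is above and blue below that mean, and the colour saturates at ±1.5. Zrsr1, Sgce, Plagl1 and Peg10 are red in all 3 columns of line KO_2, and no member is the highest in every culture in another line.

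Zrsr1 (chr11:22972005-22976496) encodes a splicing factor subunit related to U2AF1 and arose by retrotransposition from Zrsr2. In line KO_2 it was at 5.79, 4.80 and 5.64 FPKM in ES cells, EBs and N2B27. In the same order it was at 2.46, 2.32 and 3.10 FPKM in KO_1 and at 2.99, 2.75 and 3.32 FPKM in KO_3. The WT lines had 3.66, 3.14 and 4.25 FPKM (Ctr) and 2.96, 2.32 and 3.24 FPKM (WT). KO_2 thus lay 1.76 to 2.12 times above the mean of the other KO lines, and each of its 3 values was above all 12 values of the other lines. The 453, 364 and 443 estimated fragments behind the KO_2 values compare with 171 to 338 in the other lines. Lines of a genotype differed by F = 39.0 (limma F test of line within genotype, adjusted p = 0.00705). That test called 7 of 12929 genes, 0.0541% of those tested, and Zrsr1 was the only member among them.

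Zrsr1 was higher in KO_2 than in KO_1 by 0.82 ± 0.09 (SE) on the log2(FPKM + 1) scale (adjusted p = 0.00276; 0.0619% of genes called). It was lower in KO_3 than in KO_2 by a difference of -0.67 ± 0.09 (adjusted p = 0.0200; 0.0696% called). KO_3 and KO_1 differed by 0.15 ± 0.09 (adjusted p = 0.936; 0 genes called), and the lines WT and Ctr by -0.29 ± 0.09 (adjusted p = 0.966; 0.0309% called). A line here is 1 source sampled in 3 cultures, so the test concerns these lines and not a kind of line. Without the ES, EB or N2B27 libraries, which leaves 3 residual degrees of freedom, the adjusted p of the F test was 0.806, 0.349 and 0.229. Without a filter on low values it was 0.0546.

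Zrsr1 lies inside Commd1, a gene on the opposite strand, and 9.17% of its bases overlap Commd1 exons. The sources used here do not say whether the counting used strand. Commd1 was at 51.2, 45.2 and 54.0 FPKM in KO_2 in ES cells, EBs and N2B27, against 46.2 to 50.5, 49.5 to 58.6 and 45.3 to 61.5 FPKM in the other lines. KO_2 was thus the highest line for Commd1 in ES cells, the lowest in EBs and within the range of the others in N2B27. The parent gene Zrsr2 was at 13.8, 14.3 and 12.0 FPKM in KO_2 in ES cells, EBs and N2B27, against 14.9 to 16.1, 14.3 to 15.6 and 10.6 to 12.6 FPKM in the other lines. The level of Zrsr2 in KO_2 was thus below the other lines in ES cells and EBs and within their range in N2B27.

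Sgce and Peg10 are neighbours on chromosome 6 (chr6:4674350-4747204 and chr6:4747306-4760517) that are transcribed away from each other, with starts 102 bases apart. Sgce encodes epsilon-sarcoglycan, a membrane protein, and Peg10 is a gene derived from a retrotransposon that is needed for the placenta. In KO_2 Sgce was at 2.37, 25.6 and 40.3 FPKM in ES cells, EBs and N2B27. The other KO lines had 1.37, 9.57 and 21.8 FPKM (KO_1) and 1.06, 9.22 and 24.0 FPKM (KO_3). Lines Ctr and WT had 1.45, 13.9 and 29.6 FPKM and 0.99, 12.0 and 22.5 FPKM, in that order of lines. At the length of the shortest Sgce transcript (1619 bases, the longest 1776), the ES values correspond to only 29 to 67 estimated fragments per library. Sgce in KO_2 was 1.76 to 2.72 times the mean of the other KO lines, with the largest ratio in EBs. It was lower in KO_3 than in KO_2 by a log2 difference of -0.94 ± 0.14 (adjusted p = 0.0430), and KO_2 differed from KO_1 by 0.90 ± 0.14 (adjusted p = 0.0632). The F test over lines missed the threshold for Sgce (F = 21.2, adjusted p = 0.0861, the tenth smallest p of all genes). The call of KO_3 against KO_2 for Sgce was lost without a filter (adjusted p = 0.180), without the variance trend (0.0562) and without any of the cultures (0.279 to 0.628).

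Peg10 was at 39.5, 123 and 184 FPKM in KO_2 in ES cells, EBs and N2B27. It was at 19.6, 75.2 and 83.7 FPKM in KO_1 and at 22.8, 57.0 and 116 FPKM in KO_3. In lines Ctr and WT the levels were 28.1, 117 and 67.3 FPKM and 20.5, 119 and 101 FPKM. KO_2 was 1.84 to 1.87 times the mean of the other KO lines, but in EBs it exceeded the WT lines by only a few FPKM. Its difference from KO_1 was 0.94 ± 0.18 (adjusted p = 0.225), that of KO_3 from KO_2 was -0.84 ± 0.18 (adjusted p = 0.434), and the F test over lines gave adjusted p = 0.570.

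Plagl1 (chr10:13090832-13131694), also called Zac1, encodes a zinc finger transcription factor that is known to act on a set of other imprinted genes. Its KO_2 levels were 7.18, 7.61 and 33.6 FPKM in ES cells, EBs and N2B27. Those of KO_1 were 3.96, 4.13 and 10.4 FPKM and those of KO_3 were 4.48, 3.69 and 13.6 FPKM. Lines Ctr and WT had 3.50, 4.79 and 15.5 FPKM and 2.99, 7.60 and 21.8 FPKM. In EBs KO_2 and line WT were level, so that in this culture KO_2 exceeded only KO_1, KO_3 and Ctr clearly. KO_2 was 1.70 to 2.80 times the mean of the other KO lines and differed from KO_1 by 1.02 ± 0.18 (adjusted p = 0.154). The difference of KO_3 from KO_2 was -0.90 ± 0.18 (adjusted p = 0.368), and the F test over lines gave adjusted p = 0.309. The other 6 members ranked 2166th or lower of 12929 genes in the F test.

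After the mean of each culture was taken out, the levels of Zrsr1 and Sgce had a Pearson correlation of 0.880 over the 15 libraries, which share 5 lines. Of all genes tested, the most like Zrsr1 were Sgce (0.880), Fam183b (0.880) and Uty (0.876). Among members the next pairs were Plagl1 with Peg10 at 0.773, Plagl1 with Sgce at 0.708 and Peg10 with Sgce at 0.692. These values are a description.

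**Figure D2:**
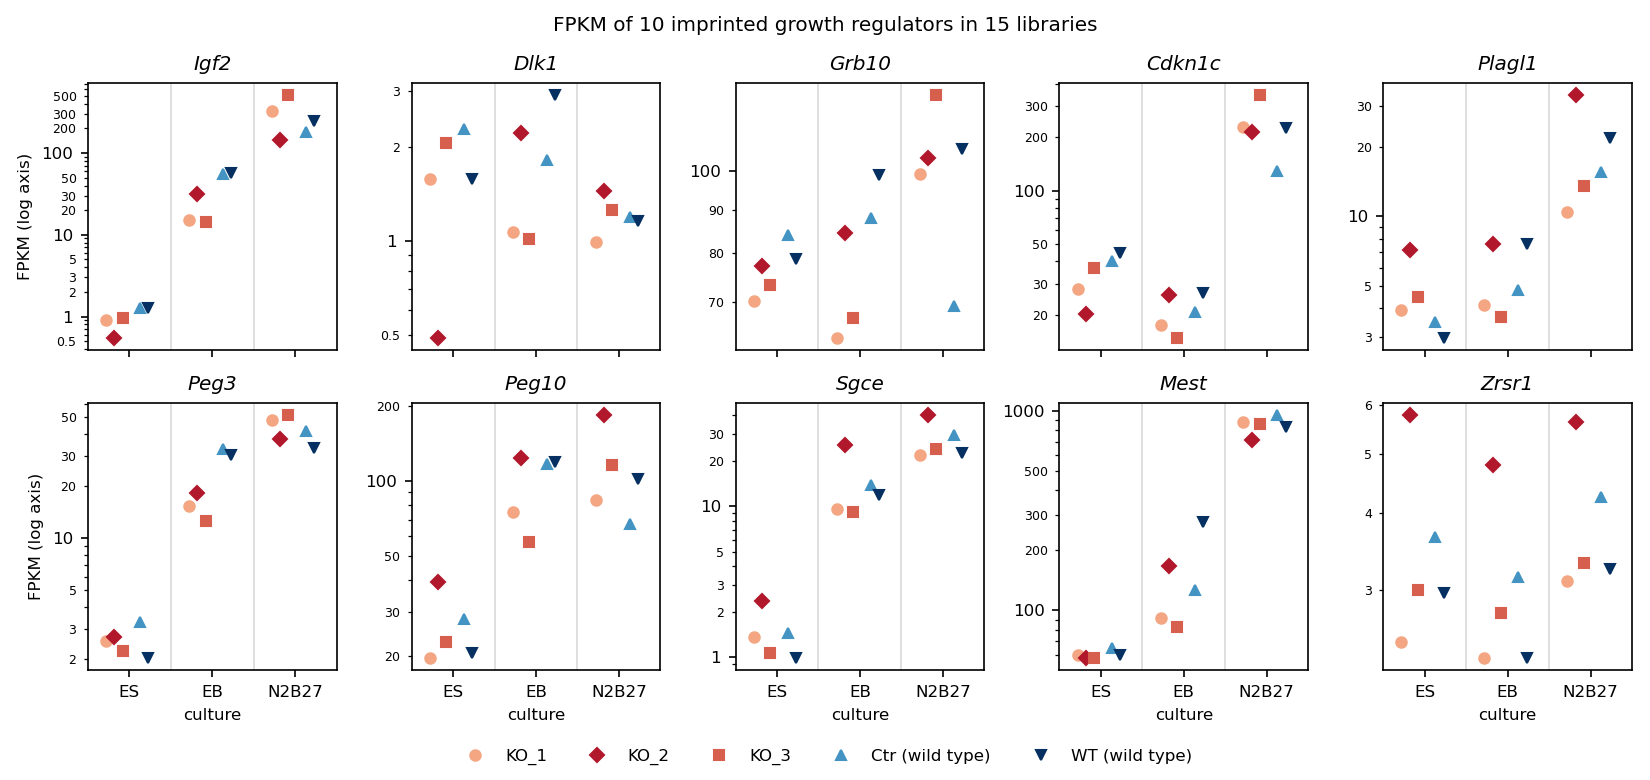
FPKM (log axis, its range set for each gene) of the 10 members in ES cells, EBs and N2B27; each point is 1 library, KO lines in red shades left of the WT lines in blue. In EBs the 3 KO libraries of Peg3 (12.6 to 18.2 FPKM) and of Igf2 (14.5 to 31.5 FPKM) lie below both WT libraries.

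Between the genotypes, no member passed the test in ES cells or N2B27. Mettl5 itself also missed the threshold there, with log2 differences of -1.08 in ES cells and -0.82 in N2B27, though its levels did not overlap. A missed call in these cultures therefore does not show that a member was unchanged. In EBs 1 member, Peg3, was called lower in KO and none was called higher. Of the 10 members 8 had a negative difference in EBs, as had 7893 of all 12929 genes tested. The median log2 difference of the members in EBs was -0.44, against -0.04 over all genes tested. At an adjusted p below 0.05, 2.27% of genes were called in EBs, 1.62% as lower and 0.65% as higher in KO. Of these calls 28.7% were higher in KO, against 18.7% with TPM and 41.7% with median-ratio scaling. In ES cells no gene was called by limma (0.0%), whereas 447 genes had an unadjusted p below 0.05, none of them a member. In N2B27 0.101% of genes were called and no member was, with 8 members above 0 and 2 below.

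Peg3 (chr7:6703892-6730462) encodes a large zinc finger protein, active from the paternal copy and known for effects on maternal care and fetal growth. In EBs it was at 15.3, 18.2 and 12.6 FPKM in KO lines KO_1, KO_2 and KO_3, against 32.7 and 30.1 FPKM in lines Ctr and WT. The groups did not overlap, and each KO line was well below both WT lines. The log2 difference was -0.998 ± 0.17 (adjusted p = 0.00991). In ES cells Peg3 was at 2.55, 2.70 and 2.23 FPKM in KO and 3.31 and 2.04 FPKM in WT. In N2B27 it was at 48.4, 37.7 and 51.7 FPKM in KO and 41.7 and 33.1 FPKM in WT. The genotypes overlapped in both of these cultures, with differences of -0.05 ± 0.17 and 0.28 ± 0.17. Without the EB library of KO_2 the EB difference of Peg3 was -1.12 (adjusted p = 0.00555). Without the EB library of line WT or of Ctr, which leaves 1 WT library in EBs, it was -1.06 and -0.94, and the call was lost. The call was also lost without the EB library of KO_3 (-0.87, adjusted p = 0.0520) and when EB libraries were fitted alone (0.106).

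Igf2 (chr7:142650768-142666816) encodes insulin-like growth factor 2, a secreted growth factor that signals through the IGF1 and insulin receptors. In EBs it was at 15.1, 31.5 and 14.5 FPKM in KO_1, KO_2 and KO_3, against 55.9 and 56.7 FPKM in Ctr and WT. The highest KO level was well below the lower WT level, with KO_2 nearer to WT than the other KO lines. The log2 difference of Igf2 was -1.51 ± 0.40 and missed the threshold (adjusted p = 0.0678). Without the EB library of KO_2 it was -1.86 and passed (adjusted p = 0.0198). Since KO_2 was the KO library nearest to WT, leaving it out must enlarge the difference. The Igf2 difference without another EB library is not given here. In N2B27 Igf2 was at 323, 145 and 516 FPKM in the KO lines and 179 and 244 FPKM in the WT lines. The KO lines there spanned the WT range, with KO_3 highest and KO_2 lowest of all 5 lines, and the difference was 0.47 ± 0.40 (adjusted p = 0.822). In ES cells Igf2 was at 0.91, 0.55 and 0.97 FPKM in KO and 1.26 and 1.27 FPKM in WT. At the length of the shortest Igf2 transcript (650 bases), these correspond to 6 to 15 estimated fragments per library. Longer transcripts (up to 4722 bases) would give more, so this non-overlap may rest on few fragments.

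Mest (chr6:30733506-30748466), which encodes a hydrolase-like protein known from growth of the embryo and of fat tissue, was at 91.7, 166 and 82.2 FPKM in KO EBs and 127 and 278 FPKM in WT EBs. KO_2 lay between the WT lines, so the genotypes overlapped. The Mest difference was -0.80 ± 0.28 (adjusted p = 0.191). It was -1.11 without the EB library of KO_2 (adjusted p = 0.0265). With 1 WT library left in EBs, it was -1.36 without that of Ctr and -0.24 without that of line WT. The Mest difference thus rests on which libraries are included. In ES cells Mest was at 59.7, 57.8 and 58.1 FPKM in KO and 64.7 and 60.1 FPKM in WT, and in N2B27 at 881, 714 and 863 FPKM in KO and 956 and 826 FPKM in WT. Neither of these differences passed the test.

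Grb10 (chr11:11930499-12037428) encodes an adaptor that binds the insulin and IGF1 receptors and restrains growth. In EBs it was at 63.6, 84.5 and 67.2 FPKM in KO and 88.0 and 98.8 FPKM in WT (difference -0.38 ± 0.16, adjusted p = 0.262). In ES cells it was at 70.2, 77.4 and 73.5 FPKM in KO and 84.1 and 78.8 FPKM in WT. The groups did not overlap in either culture, but the gaps were small. In N2B27 the KO lines had 99.1, 104 and 123 FPKM and the WT lines 69.4 and 106 FPKM, and the groups overlapped.

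Cdkn1c (chr7:143458339-143461059) encodes p57, an inhibitor of cyclin-dependent kinases. In ES cells it was at 27.8, 20.2 and 36.7 FPKM in KO and 40.01 and 44.5 FPKM in WT, without overlap (difference -0.60 ± 0.29, adjusted p = 1). EBs had 17.5, 26.1 and 14.9 FPKM in KO and 20.7 and 26.6 FPKM in WT. N2B27 libraries had 228, 214 and 349 FPKM in KO and 129 and 226 FPKM in WT. The groups overlapped in both day-6 cultures, and neither difference passed the test.

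Dlk1 (chr12:109452485-109463336), a transmembrane relative of Notch ligands, had the lowest mean levels of the 10 at day 6. In ES cells it was at 1.57, 0.49 and 2.06 FPKM in KO and 2.27 and 1.57 FPKM in WT, and in EBs at 1.07, 2.21 and 1.01 FPKM in KO and 1.81 and 2.93 FPKM in WT. N2B27 libraries had 0.99, 1.44 and 1.25 FPKM in KO and 1.19 and 1.16 FPKM in WT. At the length of the shortest Dlk1 transcript (1129 bases, the longest 4106), these correspond to 10 to 54 estimated fragments per library. The genotypes overlapped in each culture. The difference in EBs did not pass the test (-0.49 ± 0.27, adjusted p = 0.432).

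Of the members that stood out in line KO_2, none passed the test between the genotypes in any culture, although Plagl1 was higher in KO than in WT ES cells without overlap. In EBs the differences were 0.17 ± 0.29 for Zrsr1, 0.03 ± 0.36 for Sgce, -0.54 ± 0.35 for Peg10 and -0.25 ± 0.39 for Plagl1, with adjusted p of at least 0.530. Without the EB library of KO_2 they were -0.07 for Zrsr1, -0.42 for Sgce, -0.84 for Peg10 and -0.52 for Plagl1, with adjusted p of 0.266 to 0.942. Zrsr1 and Sgce thus changed direction. KO_2 was the highest line for each of these members, so leaving it out must lower each difference, and the shift gives no independent support.

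Counted over all members, the KO and WT libraries did not overlap for 3 members in EBs, all lower in KO (Igf2, Peg3 and Grb10; 18.1% of all genes were lower without overlap), and for none that was higher (8.34% of all genes). In ES cells 4 members lay below without overlap (Igf2, Mest, Cdkn1c and Grb10; 11.3% of all genes) and Plagl1 above (12.7%). No member did so in N2B27 (8.88% above and 13.2% below among all genes). When the 3 cultures of a line were averaged, no member was called (0.0541% of genes). The largest such difference among members was that of Igf2, at -0.46 ± 0.10 (adjusted p = 0.123).

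**Figure D3:**
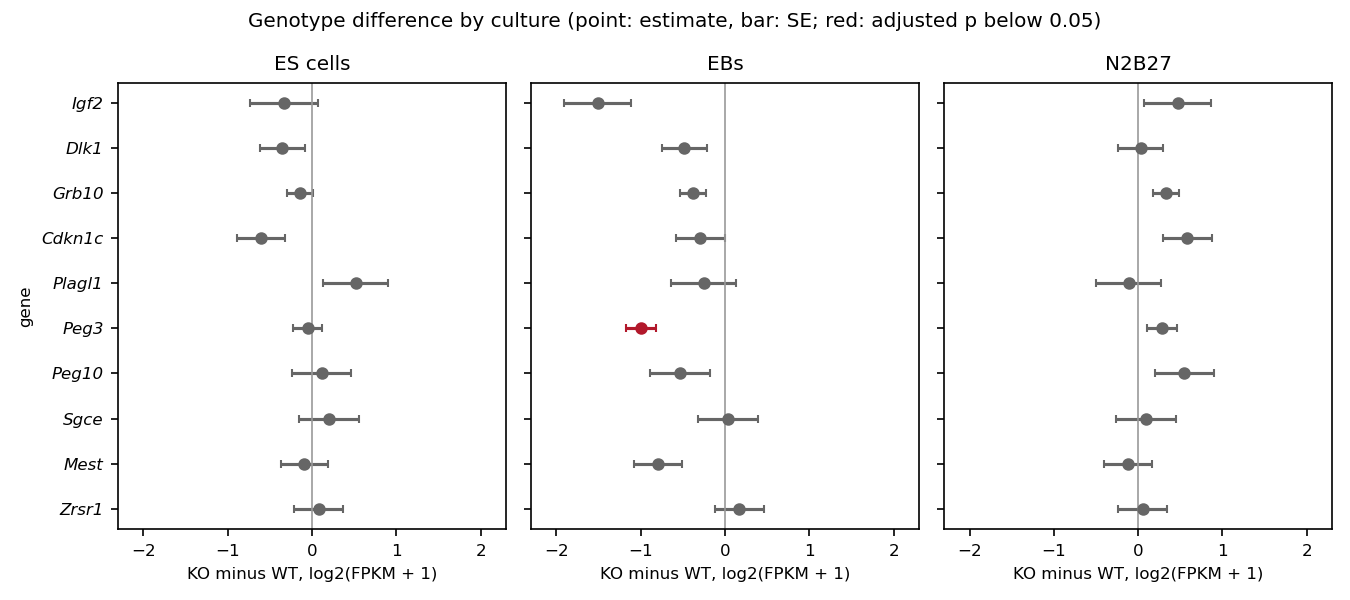
KO minus WT difference on the log2(FPKM + 1) scale (x axis) of each member (rows) in ES cells, EBs and N2B27; points are estimates of the fit, bars their standard errors, and red marks an adjusted p below 0.05. Peg3 in EBs is the only red point, at -0.998 ± 0.17, and Igf2 in EBs, at -1.51 ± 0.40, is the lowest.

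Summed levels of marker lists were also compared between the genotypes in EBs. The summed level of 13 measured mesoderm and endothelium markers was 16.8 to 21.6 FPKM in KO EBs and 42.7 to 53.9 FPKM in WT EBs. Of the 10 of these that were tested, 6 were called lower and none higher in KO. Fibroblast and feeder markers summed to 121 to 173 FPKM in KO EBs and 210 to 272 FPKM in WT EBs, with 4 of 12 tested lower and none higher. Extraembryonic endoderm and trophoblast markers summed to 42.5 to 56.4 FPKM in KO EBs and 73.4 to 79.0 FPKM in WT EBs, with 2 of 9 tested lower and none higher. Germ layer markers summed to 304 to 438 FPKM in KO EBs and 451 to 534 FPKM in WT EBs, with 3 of 12 lower and none higher. ES cell markers summed to 1795 to 2105 FPKM in KO EBs and 1443 to 1492 FPKM in WT EBs, with 1 of 10 called higher and 1 lower. Neural markers overlapped, with sums of 67.17 to 78.49 FPKM in KO EBs and 77.15 to 116.04 FPKM in WT EBs. Of these 10 neural markers 1 was called lower and none higher. Col3a1 of the fibroblast and feeder list was at 0.12 to 0.27 FPKM in KO EBs and 0.21 to 0.55 FPKM in WT EBs. Lum of that list was at 0 in KO EBs and at 0.03 FPKM in WT EBs. Both add little to the sum of the list, and EB values of its other genes are not given here. The part of these cell types in the values of Peg3, Igf2 and Mest was not tested. In such bulk libraries, fewer cells of a type and less RNA per cell cannot be told apart.

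The difference between the genotypes was also compared between the day-6 cultures, a contrast chosen after seeing the data. Peg3 was the only member called, with a KO minus WT difference in EBs that was below that in N2B27 by a log2 difference of -1.28 ± 0.25 (adjusted p = 0.0336; 0.441% of genes called). For Igf2 this contrast was -1.98 ± 0.56 (adjusted p = 0.169), and without KO_2 in N2B27 it was -2.48 (adjusted p = 0.00751). Since KO_2 was the lowest line for Igf2 in N2B27, leaving it out must make this contrast more negative. With Peg3 the call was lost at a pseudocount of 0.1 (adjusted p = 0.0964), without a filter (0.0650), and when any of 7 libraries was left out (0.0633 to 0.108), which were Ctr, WT and KO_3 in either day-6 culture and KO_1 in N2B27. The change between ES cells and EBs or N2B27 differed between the genotypes for no member (0.155% and 0.00773% of all genes called). For Peg3 the EB change differed by -0.94 ± 0.25 (adjusted p = 0.218).

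With differentiation, the growth factor Igf2 and most other members rose in both genotypes, in EBs, N2B27 or both. In EBs against ES cells 5 members were called higher in KO and 5 in WT, against 36.2% and 35.8% of all genes. In each genotype they were Igf2, Peg3, Sgce, Peg10 and Mest. In N2B27 against ES cells 8 were called higher in KO and 7 in WT, against 43.5% and 41.5% of all genes. The comparisons of both day-6 cultures share the ES libraries of a genotype. The median log2 difference of the members was 0.47 (KO) and 1.16 (WT) in EBs, and 2.68 (KO) and 2.09 (WT) in N2B27. Over all genes tested it was 0.06 (KO) and 0.11 (WT) in EBs and 0.11 (KO) and 0.12 (WT) in N2B27.

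Igf2 had the largest change of the 10. Its mean was 20.4 ± 9.68 FPKM in KO EBs and 0.81 ± 0.23 FPKM in KO ES cells (SD, n = 3 each; log2 difference 3.48 ± 0.36, SE; adjusted p = 1.16e-06). In WT it was 56.3 ± 0.55 FPKM in EBs and 1.26 to 1.27 FPKM in ES cells (n = 2 each; 4.66 ± 0.44, adjusted p = 6.79e-07). In N2B27 the mean was 328 ± 186 FPKM in KO and 211 ± 45.9 FPKM in WT, differences of 7.33 ± 0.36 (adjusted p = 1.53e-10) and 6.53 ± 0.44 (adjusted p = 7.93e-09) from ES cells. All day-6 libraries were above all ES libraries of Igf2, and all N2B27 libraries were above all EB libraries.

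Mest reached the highest level of the 10 in N2B27, at 820 ± 91.6 FPKM in KO and 891 ± 91.7 FPKM in WT, against 58.5 ± 1.02 and 62.4 ± 3.22 FPKM in ES cells of KO and WT. The log2 differences were 3.78 ± 0.25 in KO and 3.81 ± 0.31 in WT (adjusted p = 5.15e-09 and 6.56e-08). In EBs its rise was smaller, at 0.87 ± 0.25 in KO and 1.58 ± 0.31 in WT (adjusted p = 0.00784 and 0.000576). Peg3 rose by 2.22 ± 0.16 in KO EBs and 3.16 ± 0.19 in WT EBs, and by 3.74 ± 0.16 in KO and 3.40 ± 0.19 in WT N2B27 (highest adjusted p = 2.71e-08). Sgce rose by 2.48 ± 0.32 in KO and 2.66 ± 0.39 in WT EBs, and by 3.49 ± 0.32 in KO and 3.60 ± 0.39 in WT N2B27. Its neighbour Peg10 rose by less, with 1.60 ± 0.32 in KO and 2.25 ± 0.39 in WT EBs and 2.18 ± 0.32 in KO and 1.74 ± 0.39 in WT N2B27.

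Plagl1 and Cdkn1c rose in N2B27 but were not called higher in EBs. For Plagl1 the N2B27 difference was 1.57 ± 0.35 in KO and 2.20 ± 0.42 in WT (adjusted p = 0.000858 and 0.000335), and the EB difference was -0.03 ± 0.35 in KO and 0.74 ± 0.42 in WT (adjusted p = 0.938 and 0.1505). With the line as a replicate block, which pairs the cultures of a line, the last of these was called (0.74, adjusted p = 0.0130). Cdkn1c rose by 3.18 ± 0.26 in KO and 1.99 ± 0.32 in WT N2B27 (adjusted p = 4.04e-08 and 5.69e-05). In EBs Cdkn1c was lower than in ES cells in WT (-0.82 ± 0.32, adjusted p = 0.0376; 23.6% of genes called lower), a call lost without a filter (0.0712) and without Ctr or WT in ES cells or Ctr in EBs (0.0806 to 0.186), and in KO it did not pass (-0.51 ± 0.26, adjusted p = 0.0970). Grb10 rose only slightly in KO N2B27 (0.55 ± 0.14, adjusted p = 0.00245) and was not called in WT N2B27 (0.08 ± 0.17). Neither Dlk1 nor Zrsr1 was called in any culture comparison.

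**Figure D4:**
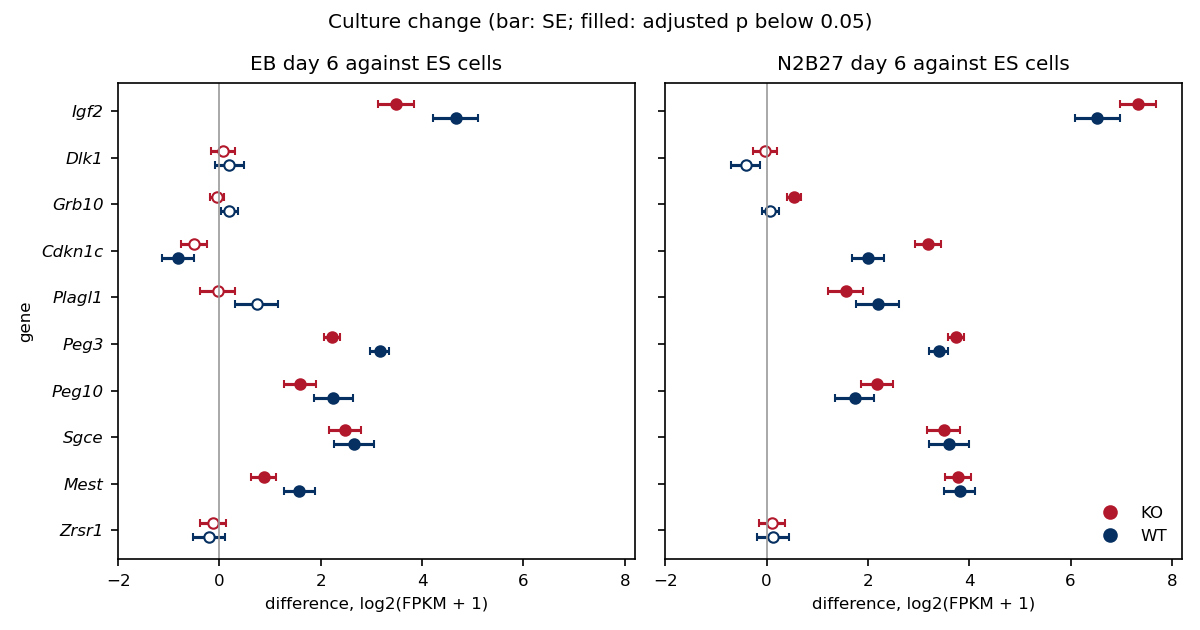
Difference of EBs (left) and N2B27 (right) from ES cells on the log2(FPKM + 1) scale for each member, KO (red) above WT (blue); bars are standard errors, and filled points have an adjusted p below 0.05. Igf2 lies farthest to the right in N2B27, at 7.33 in KO and 6.53 in WT, while Dlk1 and Zrsr1 stay near 0 with open points.

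Other imprinted genes and the machinery that keeps the imprints were compared as lists. In KO against WT EBs, 2 of 15 tested genes expressed from the paternal copy were lower and none higher, and of 25 expressed from the maternal copy 2 were lower and 1 was higher. The lower ones were Peg12 (-0.98 ± 0.22, adjusted p = 0.0337) and Ndn (-0.66 ± 0.16, 0.0489) of the paternal list, and Asb4 (-1.40 ± 0.16, 0.000573) and Zim1 (-0.56 ± 0.12, 0.0251) of the maternal list. The higher one was Calcr, the calcitonin receptor (0.69 ± 0.14, adjusted p = 0.0192). Zim1 lies next to Peg3 in the same imprinted cluster, and Asb4 and Calcr flank the cluster of Peg10 and Sgce. Asb4 was at 1.22 to 2.40 FPKM in KO EBs and 5.61 to 6.32 FPKM in WT EBs, and Zim1 was at 0.33 to 0.62 FPKM in KO EBs and 1.03 to 1.16 FPKM in WT EBs. Zim1 reached 1 FPKM only in the WT EB libraries. It thus passed the filter on low values only through the group where it was higher, and its call gives no independent support. The median log2 difference of the paternal list was -0.20 and that of the maternal list -0.05, with -0.04 over all genes. No gene of these lists was called in ES cells or N2B27, and H19 and Meg3 were not analysed here. Snrpn, Igf2r and Commd1 were not called between the genotypes in any culture. Between cultures, the paternally expressed Nnat, a small membrane protein of neural tissue, rose in N2B27 by 4.41 ± 0.15 in KO and 5.00 ± 0.19 in WT, and Peg12 by 3.37 ± 0.20 in KO and 3.91 ± 0.24 in WT. The maternally expressed Phlda2, which restrains placental growth, was lower in N2B27, with log2 differences of -3.84 ± 0.11 in KO and -4.16 ± 0.14 in WT. In EBs against ES cells, 11 of 15 paternally expressed genes were higher and 1 lower in KO, and 9 were higher and none lower in WT. Of 25 maternally expressed genes, 10 were higher and 2 lower in KO EBs, and 12 were higher and 2 lower in WT EBs. Of all 12929 genes tested, 4686 were higher and 3685 lower in KO EBs, and 4633 higher and 3050 lower in WT EBs.

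Of 18 tested genes for imprint maintenance and DNA methylation, 1 was lower and none higher in KO EBs, namely Dppa3, which protects maternal methylation in the early embryo (-0.96 ± 0.20, adjusted p = 0.0281). Between cultures many genes of this list were called, as were many of all genes. In EBs against ES cells 10 were lower and 5 higher in KO, and 11 lower and 5 higher in WT. Of all 12929 genes tested, 3685 were lower and 4686 higher in KO EBs, and 3050 lower and 4633 higher in WT EBs. In N2B27 13 of the list were lower and 5 higher in KO, and 12 lower and 3 higher in WT. Over all genes, 4288 were lower and 5618 higher in KO N2B27, and 3775 lower and 5367 higher in WT N2B27. Zfp57, which binds methylated imprint marks, was lower in N2B27, with log2 differences of -2.65 ± 0.11 in KO and -3.01 ± 0.13 in WT, and its partner Trim28 had differences of -1.21 ± 0.08 in KO and -1.29 ± 0.09 in WT. Dnmt3l, a cofactor of the de novo methyltransferases, was lower in N2B27, with differences of -4.42 ± 0.16 in KO and -4.62 ± 0.20 in WT, whereas Dnmt3b was higher in EBs by 2.64 ± 0.16 in KO and 2.00 ± 0.20 in WT. No gene of the list was called in KO against WT ES cells or N2B27.

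Among 16 tested genes of IGF signalling, 2 were lower and none higher in KO EBs than in WT EBs. They were Igfbp4, a binding protein that withholds IGFs from their receptors (10.9 to 17.2 FPKM in KO and 26.1 to 27.1 FPKM in WT; -0.95 ± 0.18, adjusted p = 0.0128), and Igf2bp3, an RNA-binding protein of Igf2 mRNA (-0.28 ± 0.06, adjusted p = 0.0327). The receptors Igf1r and Insr rose with Igf2 in EBs, Igf1r by 1.13 ± 0.13 in KO and 1.31 ± 0.15 in WT, and Insr by 0.92 ± 0.11 in KO and 1.06 ± 0.13 in WT. In N2B27 Igfbp5 rose by 7.38 ± 0.24 in KO and 7.31 ± 0.29 in WT, the largest change in this list. Of the IGF genes, 12 were higher and 3 lower in KO N2B27, and 11 higher and 3 lower in WT N2B27. Of all 12929 genes tested, 5618 were higher and 4288 lower in KO N2B27, and 5367 higher and 3775 lower in WT N2B27. The genotype medians of this list were -0.19 in EBs and 0.03 in N2B27.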

How the data were processed

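Oligo(dT)-selected mRNA, extracted with Trizol, was sequenced after random-hexamer priming, per the labels' protocols. The authors deposited 1 table of FPKM values for 18762 genes, per the file headers, and Bowtie2, RSEM and mm10 (GRCm38) are named in the submitters' processing notes. The sources used here give no versions, strandedness or annotation. RSEM divides ambiguous fragments by estimation, which bears on Zrsr1, Igf2, Mest, Peg3, Plagl1 and Grb10, whose exons or introns overlap other genes. A spreadsheet had turned 27 symbols into dates. Depth was estimated from low values: at the best total, 60.4% to 70.2% of 225 to 326 values in a library were whole fragments within 0.1, and the median over other totals was 10.8% to 14.4%. Values are not counts, so no count test was used.

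Groups and lines were taken from the titles. Differences were tested on log2(FPKM + 1), a scale that understates changes of low genes, with limma 3.58.1 (R 4.3.3), a variance trend and Benjamini-Hochberg adjustment at 0.05 over 12929 genes with at least 1 FPKM in at least 2 libraries. Groups were fitted over all 15 libraries (9 residual degrees of freedom), lines within genotype with 6 and the 5 line means with 3. Nothing states that libraries came from separate cultures, so the p-values reflect only how these libraries spread, which can be technical. The fits were also run on simulated data with independent noise, which lack the shared lines and cultures of these libraries. The outcome is not given or used here. The same line name in different cultures was taken to mark the same cell line, which the labels do not state. The correlation of deviations of a line between cultures was -0.18 to 0.27, and the line as a block was an alternative. The other alternatives were the pseudocount, the filter, rescaling to TPM or by median ratios, no trend, single cultures and leaving out each library.

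The members and lists were chosen with earlier results of these data known. The genes named besides the members were up to 5 per direction and comparison with the largest called change in the imprinted, maintenance and IGF lists, with Mettl5, defining markers, a set of genes of imprinting and its maintenance, and the 3 genes most like a member called between lines. Zrsr2, Fam183b and the Y-linked genes were added after their values were seen. Coordinates are from RefSeq.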

Additional observations from a re-analysis of the deposited data

Results flagged for a closer look

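For Peg3 the genotype difference in EBs was tested against that in N2B27. The KO minus WT difference in EBs was below that in N2B27 by a log2 difference of -1.28 ± 0.25 (SE; limma, adjusted p = 0.0336), in a contrast chosen after seeing the data. The call was lost at a pseudocount of 0.1 (adjusted p = 0.0964), without a filter (0.0650) and when any of 7 libraries was left out (0.0633 to 0.108). In EBs all 3 KO libraries of Peg3 were below both WT libraries, while in N2B27 the groups overlapped, at 37.7 to 51.7 FPKM in KO and 33.1 to 41.7 FPKM in WT. The summed mesoderm and endothelium markers, at 16.8 to 21.6 FPKM in KO and 42.7 to 53.9 FPKM in WT EBs, were at 6.96 to 8.39 FPKM in KO and 7.27 to 7.30 FPKM in WT N2B27 libraries, and their part in the difference was not tested.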

How the results depend on the processing

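No called difference changed direction under an alternative. Among the KO minus WT differences of members that were not called, Sgce in EBs was -0.0139 with TPM scaling, and 10 differences changed direction with a library left out. They ranged, in ES cells, over -0.31 to 0.20 (Peg3), -0.18 to 0.33 (Peg10) and -0.21 to 0.28 (Zrsr1), in EBs over -0.42 to 0.27 (Sgce), -0.54 to 0.0313 (Plagl1) and -0.0714 to 0.33 (Zrsr1), and in N2B27 over -0.59 to 0.21 (Plagl1), -0.17 to 0.29 (Sgce), -0.16 to 0.21 (Zrsr1) and -0.0396 to 0.11 (Dlk1). The members called in KO against WT EBs went to 0 with the EB libraries alone and ranged over 0 to 3 with a library left out. Those of the contrast between day-6 cultures were 0 at pseudocount 0.1 and without a filter, and 0 to 2 with a library left out. For lines, KO_2 against KO_1 gave 2 members (Zrsr1 and Sgce) at pseudocount 0.1 and with TPM scaling, KO_3 against KO_2 gave 0 without a filter and 1 without the trend, the F test gave 2 at pseudocount 0.1 and 0 without a filter, and each gave 0 without any of the cultures, which leaves 3 residual degrees of freedom. Genes called in KO against WT EBs, 293 in all, were 181 at pseudocount 0.1, 19 with EBs alone and 56 to 383 with a library left out. In N2B27, 13 were called, and 7 at pseudocount 0.1, 52 without a filter, 3 with TPM, 8 with median-ratio scaling, 0 with N2B27 alone and 0 to 249 with a library left out; in ES cells, 0 were called, 1 without a filter and 0 to 4 with a library left out. Genes called for the genotype difference in the EB change (20) were 1 at pseudocount 0.1, 36 without a filter and 1 to 69 with a library left out, and in the N2B27 change (1) they were 0 at pseudocount 0.1, with median-ratio scaling and without the trend, 4 without a filter, 2 with TPM and 0 to 32 with a library left out. The contrast between day-6 cultures called 57 genes, 19 at pseudocount 0.1 and 18 to 245 with a library left out. Over line means 7 were called, 0 without a filter, 13 with TPM, 12 without the trend and 1 to 42 with a line left out. Without a filter KO_2 against KO_1 called 5 genes in place of 8 and KO_3 against KO_2 called 3 in place of 9, and both called 0 to 5 with a culture left out; KO_3 against KO_1 then called 0 to 2, WT against Ctr 1 to 4, and the F test 1 to 7.

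With the line as a replicate block, the genes called for the EB change fell to 7 in place of 20, the Peg3 contrast between day-6 cultures kept its call (-1.28, adjusted p = 0.0444), and among members only Plagl1 in WT EBs changed its call. No block is possible for KO against WT within a culture, since the lines do not cross the genotypes. Median-ratio scaling moved the median of all genes by -0.12 (EBs) and -0.14 (N2B27) in WT and by -0.11 in KO N2B27, and TPM by -0.10 in KO EBs and 0.12 in KO N2B27. The share of higher calls moved to 18.7% with TPM and 41.7% with median ratios from 28.7% in KO against WT EBs, to 66.7% and 75% from 46.2% in N2B27, and to 49.7% with median ratios from 60.3% in WT EBs against ES cells. In genotype and culture comparisons the one member call that scaling changed was Cdkn1c, lower in KO EBs against ES cells with TPM (-0.63, adjusted p = 0.0499). At the length of their shortest transcripts, Igf2, Dlk1 and Sgce in ES cells rest on few estimated fragments.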

Other observations

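Among imprinted genes that are not members, 1 of 15 tested paternally expressed genes, Impact, was highest in line KO_2 in all cultures. Impact, which encodes an inhibitor of the kinase GCN2, was at 31.8, 66.6 and 82.2 FPKM in KO_2 in ES cells, EBs and N2B27, against 18.6 to 24.0, 41.9 to 51.8 and 51.9 to 56.7 FPKM in the other lines. Its difference from KO_1 was 0.54 ± 0.11 on the log2 scale (limma, adjusted p = 0.291). None of 25 tested maternally expressed genes was highest or lowest in KO_2 in all cultures. Snurf was lowest in KO_2 in all cultures, at 3.22, 7.38 and 2.45 FPKM, against 3.86 to 7.41, 8.52 to 17.3 and 4.51 to 7.65 FPKM in the other lines. The share of all genes that were lowest in KO_2 is not given here. Snrpn of the same list did not share this pattern. In KO_2 Snrpn was the highest of the 5 lines in ES cells and N2B27, at 77.28 and 80.88 FPKM, and the lowest in EBs, at 129.63 FPKM. Rtl1, which lies in the imprinted cluster of Dlk1 and was named after its values were seen, was at 0.02, 0.10 and 0.03 FPKM in KO_2 and at 0.12 to 0.60 FPKM in the other lines, below the filter on low values.

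Fam183b, one of the genes most like Zrsr1 in pattern, lies at chr11:58783892-58802221 of GRCm38, far from Zrsr1 (chr11:22972005-22976496) on the same chromosome. In KO_2 Fam183b was at 4.0, 2.65 and 4.08 times the next highest line in ES cells, EBs and N2B27. Near Fam183b lie 2810021J22Rik and Rnf187, which were lower in KO_2 than in KO_1, with log2 differences of -0.74 ± 0.11 (adjusted p = 0.0437) and -0.95 ± 0.09 (adjusted p = 0.00166). These 3 genes were picked out after their values were seen. The comparison of KO_2 with KO_1 called 0.0619% of genes. They also included Cd99 (2.40 ± 0.17), Uty on the Y chromosome (1.22 ± 0.12) and Gm3417 on chromosome 17 (-1.22 ± 0.16).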
